A study of Saccharomyces cerevisiae with 4 samples.

Results

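The right arm of chromosome XI was represented by 107 genes out of the 6157 with a value on at least 2 arrays. They were chosen by name, as all probes whose ORF name begins with YKR, and no YKR probe had to be left out for missing values. In such a name K stands for chromosome XI, R for the right arm, the number counts genes outward from the centromere to the telomere, and the last letter gives the strand. Of the 107 members, 106 had a value on all 4 arrays and YKR015C had one on 3 arrays. The RefSeq gene table of assembly R64 listed 102 of them, every one on chromosome XI and in the order of the ORF numbers. The other 5 members (YKR012C, YKR033C, YKR035C, YKR040C and YKR047W) had no entry there and are called by their ORF names.

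The arrays compared RNA of the 5A mutant with RNA of control cells. RNA polymerase II carries on its largest subunit, Rpb1, a C-terminal domain (CTD) of repeated heptapeptides, and in the 5A mutant stretches of 5 alanines separate each pair of heptads. Both kinds of cell were derived from strain Z26 by plasmid shuffle, in which a cell that first lives on a URA3-linked WT copy of the polymerase gene is made to keep only a newly introduced copy, LEU2-linked in the case of the mutant, and the control received the WT CTD in the same way. Cultures were grown in YPD at 30 °C to an optical density of 0.8, and each of the 4 spotted oligonucleotide arrays was hybridized with Cy5-labelled cDNA of 1 mutant replicate and Cy3-labelled cDNA of 1 control replicate. Whether replicates came from separate cultures or clones, and how many growth cycles the cells had passed, is not given in the sources used here, so the spread between arrays may be technical. The mutant carried Cy5 on every array with no dye swap, and a bias of single probes toward a dye and a change in expression cannot be told apart. RNA was pooled from whole cultures, so a small change in every cell and a larger change in some cells cannot be told apart.

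A chromosome arm is a neighbourhood and not a pathway. Its genes have their own promoters and serve unrelated functions, and on most arms of a genome they are therefore unlikely to move together. What they do share is the DNA molecule they lie on, and the amount of an mRNA depends on how many copies of its gene a cell holds as well as on its promoter and the stability of the RNA. The right arm of chromosome XI holds genes for general amino acid uptake (GAP1), gluconeogenesis (PCK1), the microtubule motor dynein (DYN1), the nuclear pore (NUP133), translation initiation (TIF1) and many other tasks. The arrays measured RNA only, and the DNA content of the arm was not measured here.

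Values are log2 ratios of the 5A mutant over the control, so 1 stands for 2-fold more and -1 for 2-fold less RNA in the mutant. The chromosome had been singled out for the high ratios of its genes in this same comparison. Its level and the ratios of its members are therefore given as a description, and so are the counts of members that a fit over all probes called.

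Most genes of the arm were higher in the 5A mutant than in the control, by close to 2-fold. The median of the 107 means was 0.90 on the log2 scale, or 1.87-fold, and the middle part of the members, between the quartiles, ran from 0.55 to 1.20, or from 1.47-fold to 2.29-fold. The median of the arm was 0.92, 0.98, 0.81 and 0.88 on arrays 1 to 4, so it differed little between arrays (SD 0.07, n = 4). For comparison, the left arm of the same chromosome had a median of 0.87 over 210 genes, and the genes of the other nuclear chromosomes one of -0.04. The mean ratio was above 0 for 89 of the 107 members (83.2%), against a background of 49.6% over all probes, and above 0 on every measured array for 80 of them, against 27.0%. It was at least 2-fold higher for 45 members, against a background of 5.75%, and at least 2-fold lower for 2, against 8.66%. On every measured array 22 members passed 2-fold, against a background of 2.10%. The limma fit over all 6157 probes, which asks whether a ratio differs from 0 relative to the spread between arrays, called 78 members higher and 2 lower at an adjusted p of 0.05, beside 19.8% and 20.7% of all probes. Nothing is read from these counts about the choice of the chromosome, which rested on the same ratios. Without array 2, limma called 5 members lower and 77 higher, and the share of all probes called in that fit is not given here.

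**Figure D1:**
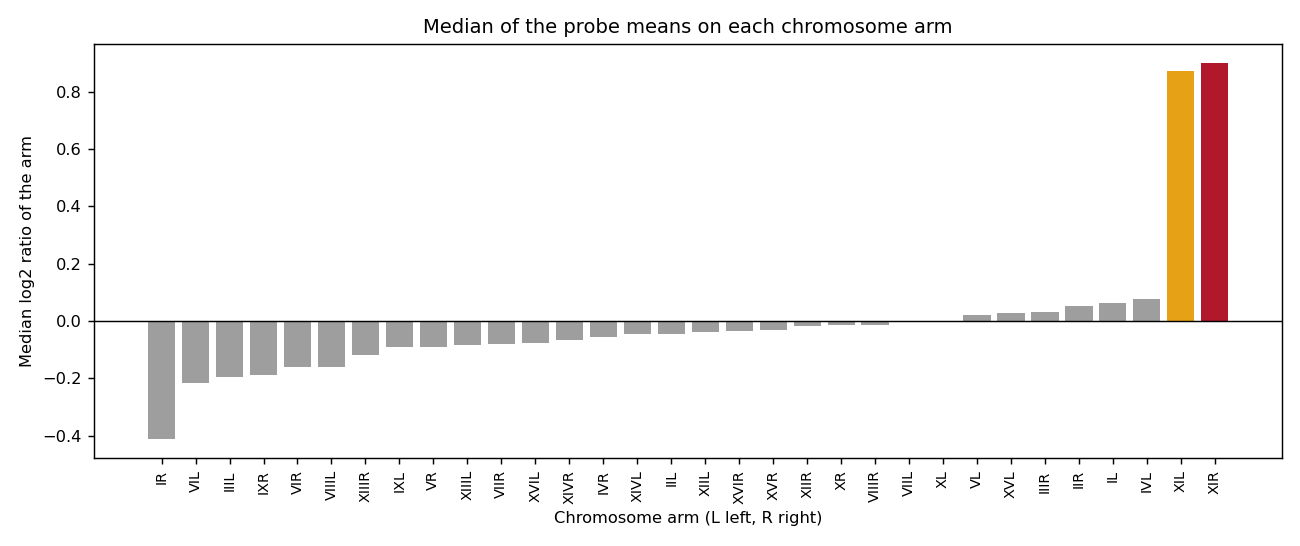
Median of the probe means (log2 ratio, 5A mutant over control) on each of the 32 chromosome arms, sorted by value, with bars from 0. The right arm of chromosome XI (red, 0.90) and its left arm (orange, 0.87) stand above the other 30 arms (grey), whose medians lie between -0.41 and 0.08.

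The spread of the members around this raised level was within the range of other arms around their own level and toward its narrow end. The distance between the quartiles of the means was 0.64 on the log2 scale for the arm, and over the other 30 arms it ran from 0.57 to 1.23 with a median of 0.75 and was smaller than that of the right arm of XI on 3 of them. The members were sorted by their distance from the arm. On each array the median of the members was subtracted from each member, and a gene was said to follow the arm where its mean distance was under 0.5, to lie below it where the distance was -0.5 or less with every measured array below the arm, and to lie above it where the distance was 0.5 or more with every measured array above. By this rule 66 members followed the arm (61.7%), 21 lay below it (19.6%) and 15 above it (14.0%), and 5 were past 0.5 on average but not on the same side on every array. Over all 6130 nuclear probes, each set against its own arm, the shares were 61.8%, 17.2% and 15.4%, so the counts were near the background. The limits cut through a continuous range. VBA5 at -0.53 and MRPL13 at -0.56 from the arm lay just below the lower limit, and PAP1 and VPS501, both at -0.44, lay just inside it. To follow the arm no agreement between arrays was required, and VPS501 ran from -1.81 on array 1 to 0.34 on array 4 from the arm. At the upper limit YKR045C at 0.48 and TRK2 at 0.47 were just inside, and CAF4 at 0.51 and IRS4 at 0.52 just outside.

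**Figure D2:**
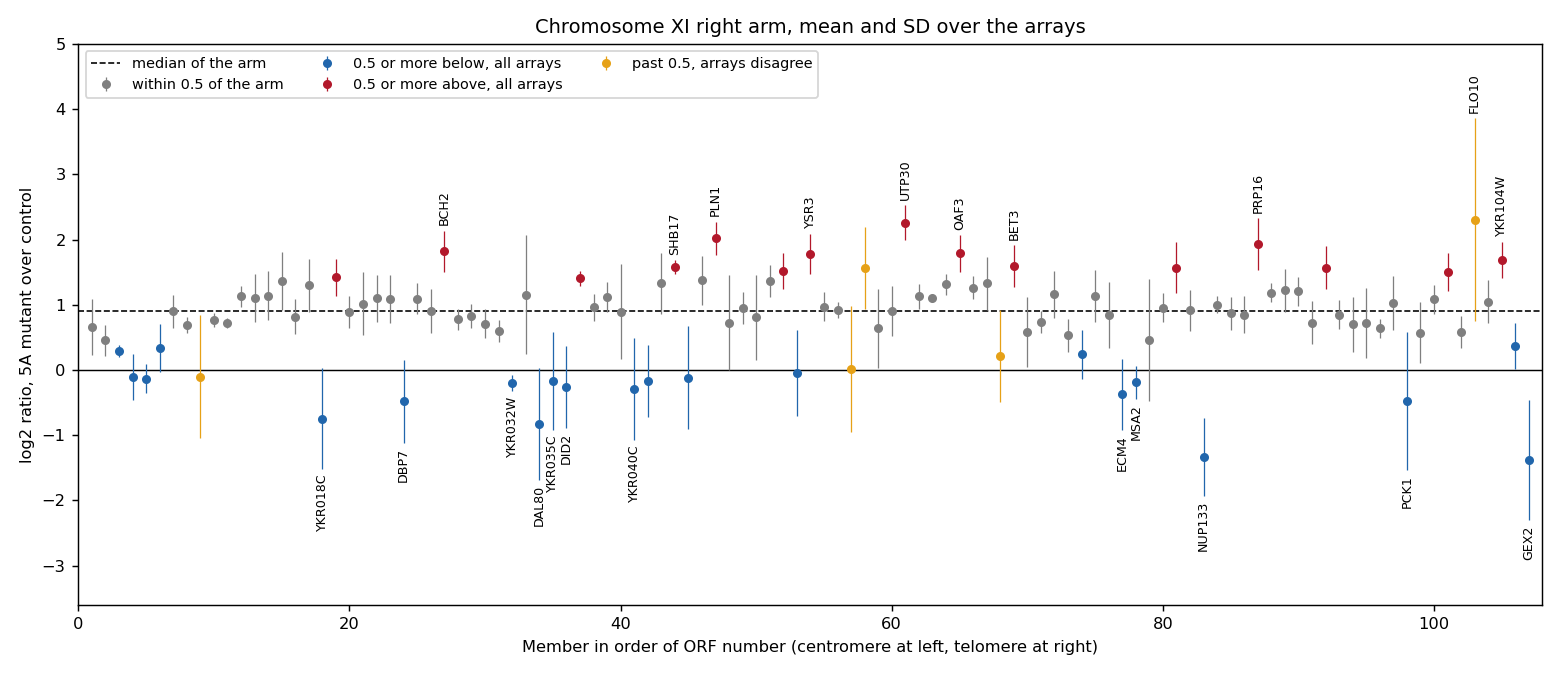
Mean log2 ratio of each of the 107 members (points) with the SD over the arrays (bars), in order of ORF number from the centromere (left) to the telomere (right); the dashed line is the arm median of 0.90. Members within 0.5 of the arm (grey) run along its whole length, and the 21 members below it (blue) and 15 above it (red) lie among them, with the 5 whose arrays disagree in orange.

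Genes that followed the arm closely came from many kinds of function. MEH1, a subunit of the vacuolar EGO complex that signals amino acid supply to TORC1, had log2 ratios of 0.75, 1.16, 1.07 and 0.62 on arrays 1 to 4. They average to 0.90 ± 0.26 (SD, n = 4), and MEH1 is the member whose mean is the median of the arm. TIF1, one of the pair of genes for the RNA helicase eIF4A of translation initiation, was at 0.71, 0.46, 1.21 and 1.26, with a mean of 0.91 ± 0.39 (SD, n = 4). Its lowest ratio was on array 2, and all of its ratios were above 0. The close copy TIF2 on chromosome X had a mean of 0.86, and the TIF1 probe may bind RNA of both genes. GCN3, a regulatory subunit of the translation factor eIF2B, was at 0.92, 0.47, 0.95 and 1.30 (mean 0.91 ± 0.34, SD, n = 4), again lowest on array 2. VPS51, of the GARP complex that tethers vesicles at the Golgi, was at 0.59, 1.17, 0.97 and 0.81 (mean 0.89 ± 0.24, SD, n = 4). RPF2, which helps to build the large ribosomal subunit, was at 0.88, 0.63, 1.36 and 0.80 (mean 0.92 ± 0.31, SD, n = 4). These genes were picked for means nearest to the arm, so their closeness to it is not a result. They were about 1.9-fold higher, and their 4 arrays lay on both sides of the arm.

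A mean near the arm did not always stand for a steady value. GAP1, the general amino acid permease, whose RNA is known to depend on the nitrogen source, averaged 0.89 ± 0.72 (SD, n = 4), but its ratios of 0.71, 1.82, 0.08 and 0.97 ran from no difference to more than 3-fold. The SD of a member over the arrays had a median of 0.33, close to the 0.30 of all probes, and ran from 0.06 to 1.55. The steadiest member was TFA2, the small subunit of the general transcription factor TFIIE, at 1.08, 1.10, 1.06 and 1.20 (mean 1.11 ± 0.06, SD, n = 4). FPT1 (0.72 ± 0.07), OSH6 (0.29 ± 0.09), SHB17 (1.58 ± 0.10) and TOF2 (0.77 ± 0.11, SD, n = 4), the last a nucleolar protein of rDNA silencing, were nearly as steady. FPT1 and TOF2 were singled out after their values were seen.

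The genes furthest below the arm had ratios near or under the control level. The mean was at or below 0 for 18 of the 107 members (16.8%), against a background of 50.4%, and at or below 0 on every array for 5 members (GEX2, NUP133, DAL80, YKR018C and YKR032W), against 28.2%. NUP133, which encodes a subunit of the Nup84 subcomplex, the outer scaffold of the nuclear pore, had log2 ratios of -1.25, -0.68, -2.12 and -1.27. All 4 arrays lay below the control level and well below the arm, with array 2 nearest to it at -1.65 from the arm, and the mean of -1.33 ± 0.60 (SD, n = 4) amounts to a ratio of 0.398. Its direct neighbours in ORF order were higher, with DAD2 on the telomere side at 1.00 ± 0.14 (SD, n = 4) and RPF2 on the centromere side at 0.92. Over the 18 members with a mean at or below 0, 9 had a direct neighbour that was at or below 0 too. No background for this count was computed.

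GEX2, the last member before the telomere, encodes a transporter that exchanges glutathione for protons. Its ratios were -0.52, -1.70, -0.76 and -2.53, lower on arrays 2 and 4 than on arrays 1 and 3, with a mean of -1.38 ± 0.92 (SD, n = 4). GEX2 and NUP133 were the 2 members with a mean at or below -1, and without array 4 NUP133 was the only 1, since GEX2 was then at -0.996. DAL80, a GATA-type repressor of genes for the use of poor nitrogen sources, was at -0.13, -0.42, -2.06 and -0.68, with a mean of -0.82 ± 0.86 (SD, n = 4) that rested largely on array 3. Without array 3 its mean was -0.41. YKR018C, a gene with no standard name, was at -1.27, -0.17, -1.53 and -0.01 (mean -0.74 ± 0.77, SD, n = 4), low on arrays 1 and 3 and near the control level on the others. YKR032W was the least far below 0 on average among these 5, at -0.26, -0.35, -0.10 and -0.10 (mean -0.20 ± 0.12, SD, n = 4).

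**Figure D3:**
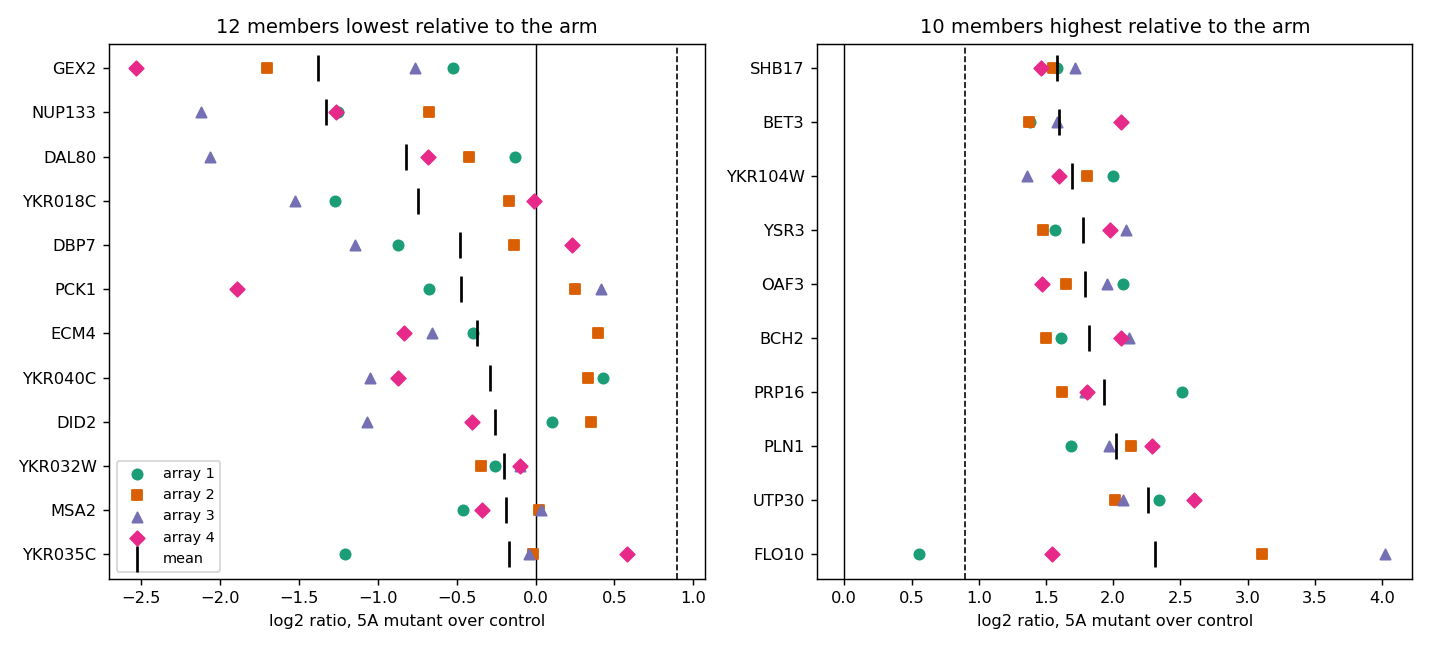
Log2 ratio on each array (coloured symbols) and mean (black bar) of the 12 members lowest and the 10 members highest relative to the arm; solid line 0, dashed line the arm median of 0.90. Every symbol of the 12 low members lies left of the dashed line, and every symbol of the 10 high members except that of FLO10 on array 1 lies right of it.

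Of the other low members, DBP7, an RNA helicase of large ribosomal subunit assembly, was at -0.87, -0.14, -1.14 and 0.23 (mean -0.48 ± 0.64, SD, n = 4). PCK1, the phosphoenolpyruvate carboxykinase of gluconeogenesis, which is repressed in cells growing on glucose, was at -0.68, 0.25, 0.42 and -1.89 (mean -0.47 ± 1.06, SD, n = 4), so its arrays spanned both directions. ECM4, a glutathione transferase, was at -0.40, 0.40, -0.66 and -0.83 (mean -0.37 ± 0.54, SD, n = 4), above 0 on array 2 and below it on the others. DID2, an ESCRT-III-associated protein of the sorting of membrane proteins to the vacuole, was at 0.10, 0.35, -1.07 and -0.40 (mean -0.25 ± 0.63, SD, n = 4). MSA2, a regulator of G1-specific transcription, was steadier at -0.46, 0.02, 0.04 and -0.34 (mean -0.19 ± 0.25, SD, n = 4). The 12 members lowest relative to the arm also included YKR040C (-0.29 ± 0.78) and YKR035C (-0.17 ± 0.75, SD, n = 4), neither with a standard name. Among further members with a mean at or below 0 were YKR041W (-0.17 ± 0.55) and UIP5 (-0.12 ± 0.79, SD, n = 4).

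The sign of the ratio in this low group often differed on array 2. Of the 18 members with a mean at or below 0, 11 had a ratio above 0 on array 2, against 3 on array 1 and 2 each on arrays 3 and 4. Array 2 was the highest array for 8 of these 18 and for 43 of all 107 members. Array 3 was the lowest array for 43 of the 107, and its median over the 18 was -0.76. Over all probes array 2 had the narrowest spread of the arrays (SD 0.74) and array 3 the widest (SD 0.97). Without array 2, 20 members had a mean at or below 0 and 11 were at or below 0 on every array. FOX2, the multifunctional enzyme of peroxisomal beta-oxidation, was at -0.27, 1.27, -0.80 and -0.62 (mean -0.10 ± 0.94, SD, n = 4). GPT2, an acyltransferase at the start of phospholipid synthesis with a mean above 0, was at 0.04, 1.25, -0.30 and -0.13 (mean 0.21 ± 0.70, SD, n = 4). FOX2 and GPT2 were both past 0.5 below the arm on average and above the arm on array 2. MRS4, an iron carrier of the inner mitochondrial membrane, had 0.84 on array 2 and between -0.75 and -0.09 on the others. Array 2 also correlated less with the other arrays over all probes (Pearson's r across probes between 0.666 and 0.691) than these did with each other (between 0.853 and 0.877). Across the members, which share each array and are not independent, r was between 0.618 and 0.667 for array 2 and between 0.706 and 0.756 for the others. Its part in the low group was not tested.

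The genes furthest above the arm agreed well between arrays, with 1 exception. UTP30, which takes part in the assembly of the small ribosomal subunit, had log2 ratios of 2.34, 2.02, 2.07 and 2.60, all past 4-fold, and averaged 2.26 ± 0.27 (SD, n = 4) or 4.78-fold. PLN1, the perilipin-like protein of lipid droplets, was at 1.69, 2.13, 1.97 and 2.29 (mean 2.02 ± 0.26, SD, n = 4). PRP16, an RNA helicase of pre-mRNA splicing, was at 2.51, 1.62, 1.79 and 1.81 (mean 1.93 ± 0.40, SD, n = 4), highest on array 1. BCH2, of the exomer complex that carries chitin synthase to the cell surface, was at 1.61, 1.50, 2.12 and 2.06 (mean 1.82 ± 0.31, SD, n = 4). OAF3, a zinc cluster repressor of genes for growth on oleate, was at 2.08, 1.65, 1.95 and 1.47 (mean 1.79 ± 0.28, SD, n = 4). YSR3, a sphingoid base phosphate phosphatase, was at 1.57, 1.47, 2.10 and 1.98 (mean 1.78 ± 0.30, SD, n = 4). Each of these 6 genes was above the arm on every array, and the smallest distance from it was 0.50, for YSR3 on array 2.

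The list of the 10 highest was completed by BET3, a core subunit of the TRAPP tethering complexes (1.60 ± 0.32), by SHB17, the sedoheptulose bisphosphatase that feeds ribose synthesis (1.58 ± 0.10), by YKR104W, an ORF resembling part of an ABC transporter (1.69 ± 0.27, SD, n = 4), and by FLO10. FLO10 encodes a flocculin, a cell surface adhesin, and had the highest mean of the arm, 2.31 ± 1.55 (SD, n = 4), but also the largest spread of all members. Its ratios were 0.55, 3.11, 4.03 and 1.55, so it lay below the arm on array 1 and far above it on arrays 2 and 3. Leaving out array 3 gave 1.74, and leaving out array 1 gave 2.89.

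Along the arm the medians differed between blocks of genes. The median of consecutive blocks of 10 members, with the last block extended to 17, ranged from 0.39 for the block next to the centromere, YKR001C to YKR010C, to 1.29 for the block YKR060W to YKR069W. With blocks of 15 the medians ran from 0.60 to 1.14. Neither range was computed for other arms or for another order of the members, so nothing is read from them about position. The medians of the block next to the centromere were 0.39, 0.56, 0.45 and 0.37 on arrays 1 to 4, the lowest of the 10 blocks on arrays 1, 2 and 4. On array 3 the blocks YKR031C to YKR039W, at 0.25, and YKR070W to YKR079C, at 0.44, were lower. None of the first 10 members reached a mean of 1, against 8 of the 10 from YKR060W to YKR069W. These blocks were set side by side because their medians were the lowest and the highest. The first member of the arm, VPS1, a dynamin-like GTPase, was at 0.66 ± 0.43, and PAP1, the poly(A) polymerase, at 0.46 ± 0.24 (SD, n = 4). The 4 members that follow, YKR003W to YKR006C, formed the longest run of neighbours below the arm. OSH6, a carrier of phosphatidylserine between membranes, was at 0.27, 0.37, 0.35 and 0.17 (mean 0.29 ± 0.09, SD, n = 4), a small and steady difference from the control. ECM9 was at -0.10 ± 0.35, YKR005C at -0.13 ± 0.22, and MRPL13, of the large subunit of the mitochondrial ribosome, at 0.33 ± 0.37 (SD, n = 4). Further out, YKR034W (DAL80) to YKR035W-A (DID2) formed a run of 3. Of the 21 members below the arm, 13 had a neighbour that was below it too. The same count was not made on other arms, so nothing is read from it about grouping. YKR035C has an ORF number in common with DID2, but their ORF names place them on opposite strands. YKR035C was at -1.21, -0.01, -0.04 and 0.58 on arrays 1 to 4, and DID2 at 0.10, 0.35, -1.07 and -0.40. Whether both probes read a common RNA was not tested.

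Near the telomere the level of the arm varied with the number of members taken. The last 10 members, from PCK1 to GEX2, had a median of 0.82, which was 0.08 under the median of the arm. The last 5 had a median of 1.05, which was 0.15 over the arm, and the last 15 one of 0.72, which was 0.18 under it. On the other 15 right arms, the last 10 probes had medians between -1.78 and 0.36. Their median difference from their own arm was -0.87, negative on 13 arms. For the last 5 probes it was -1.10, negative on 14 arms, and for the last 15 it was -0.43, negative on 12 arms. The end of the chromosome XI arm also held both extremes, since GEX2 was the lowest and FLO10 the highest of all members. Between them lay NFT1, an ABC transporter of the MRP family, at 1.05 ± 0.33, YKR104W, and VBA5, a plasma membrane transporter, at 0.37 ± 0.35 (SD, n = 4). Toward the centromere from FLO10 came SIR1, of the silencing of the mating type cassettes, at 0.58 ± 0.25, SKG1 at 1.50 ± 0.29, BAS1, an activator of purine and histidine synthesis genes, at 1.09 ± 0.22, and UBP11, a ubiquitin protease, at 0.57 ± 0.47 (SD, n = 4).

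Sorted by role, the members of nearly every group centred near the arm, and each group of more than 4 genes also held members away from it. The groups leave out 21 members that were given no role. Of these, 11 followed the arm, 7 lay below it and 3 above it, with a median of 0.74. Of 9 genes of translation and the ribosome, 7 followed the arm, and the median was 0.91. RPS21A, a protein of the small ribosomal subunit, was the highest at 1.57 ± 0.63, with 0.64 on array 2 against 1.73 to 2.03 on the others, and MRPL13 was the lowest. Of 13 genes of RNA synthesis, RNA processing and ribosome assembly, 9 followed it, with a median of 1.09, and the group ran from DBP7 at -0.48 to UTP30 at 2.26. TRM2, a methyltransferase of tRNA, was the least settled of them, with ratios of -0.34, 0.45, -1.15 and 1.08. The 4 genes listed under spindle, motor and polarity, SPC34, DYN1, RHO4 and PXL1, all followed the arm, between 0.72 and 0.97. DAD2, a subunit of the same complex as SPC34, was not on that list and followed the arm at 1.00 ± 0.14 (SD, n = 4). Of the 10 mitochondrial genes 8 followed it, and their median was 1.18, with CAF4, an adaptor of mitochondrial fission, at 1.40 ± 0.12 as the highest and MRS4 at -0.04 ± 0.66 as the lowest.

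The groups with the lowest medians were metabolism (0.59) and the regulators of nucleus, chromatin and transcription (0.73). Of the 13 metabolic genes, 5 followed the arm, 4 lay above it and 2 below it, and 2 were unsettled. Those above were PLN1, YSR3, SHB17 and MTD1, a dehydrogenase of folate-bound carbon units at 1.57 ± 0.39, and those below were PCK1 and ECM4. Of the 12 nuclear genes, 7 followed the arm, OAF3 and SRL3, a relative of the G1 repressor Whi5 at 1.57 ± 0.33, lay above it, and NUP133, DAL80 and MSA2 below it. Among 14 genes of membrane traffic and lipid transfer 9 followed the arm, and among 11 genes of transport and the cell surface 6 did, with medians of 0.89 in both groups. The lists of roles were written with earlier results of these arrays known, and the counts describe them only. Among all nuclear probes, 61.8% followed their own arm.

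**Figure D4:**
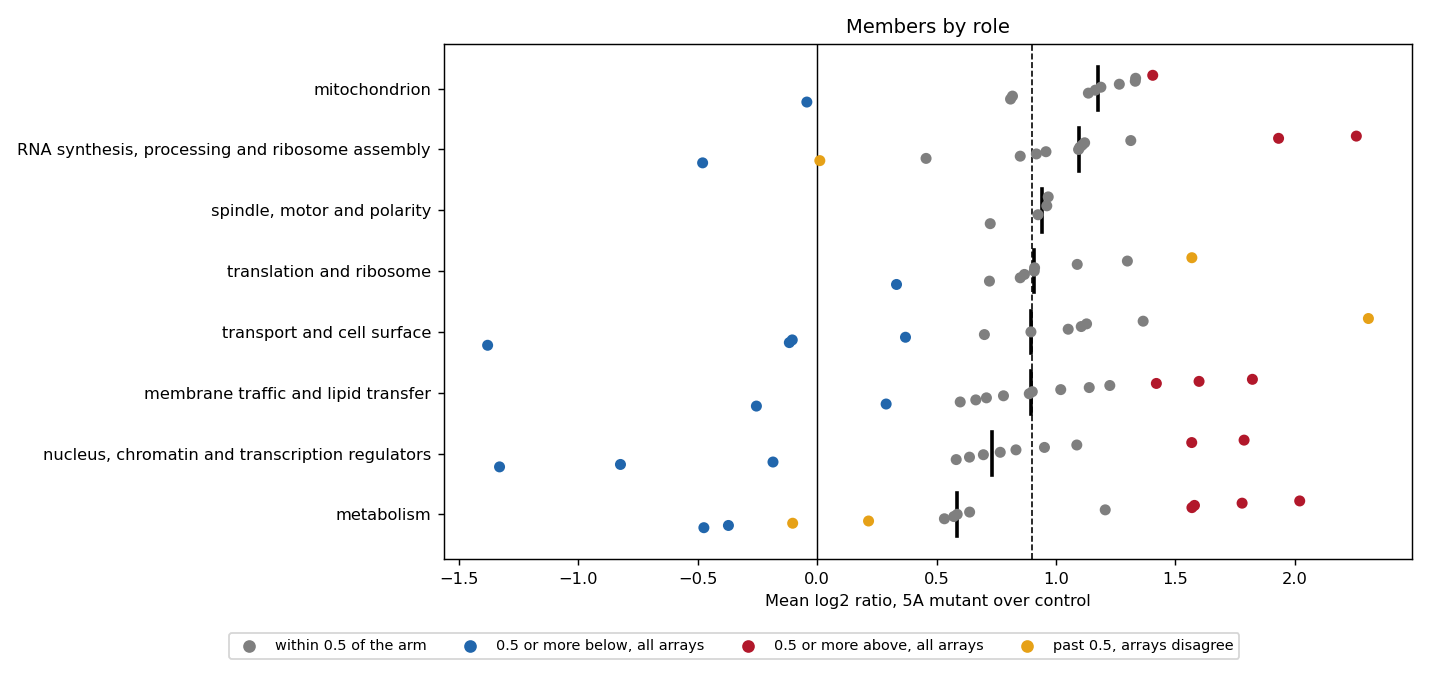
Mean log2 ratio of the members (points, coloured as in the plot along the arm) in 8 groups by role, with the median of each group (black bar), 0 (solid line) and the arm median of 0.90 (dashed line). Group medians lie between 0.59 (metabolism) and 1.18 (mitochondrion), and the 4 spindle, motor and polarity genes all lie close to the dashed line. The 21 members that were given no role are not shown.

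Many members encode one subunit of a complex whose other subunits are encoded on other chromosomes. In 14 of the 15 complexes examined the member was higher than the median of its measured partners off chromosome XI, and the median of the differences was 1.07 on the log2 scale. Of the 76 partners, 69 lay below their member, and the median of the partners was -0.02. The chromosome was chosen for its high ratios, and genes of the other chromosomes had a median of -0.04. Members above partners elsewhere are therefore what this choice gives for most genes. The share for unrelated genes was not computed, and nothing about the complexes is read from these counts. SPC34, of the DASH ring that couples kinetochores to microtubules, was at 0.82, 1.27, 0.88 and 0.88 (mean 0.96 ± 0.21, SD, n = 4), while the 4 measured DASH partners elsewhere were between -0.72 (DAM1) and 0.15 (SPC19). DYN1, the dynein heavy chain, was at 0.93, 0.69, 1.02 and 1.23 (mean 0.97 ± 0.22, SD, n = 4), above all 7 of its partners, whose median was -0.17. PAM17, of the motor that pulls proteins into mitochondria, was at 1.26 ± 0.17, above its 5 partners with a median of -0.23. For KAE1, of the KEOPS complex of tRNA modification, the value was 1.12 ± 0.23 against a partner median of 0.06, and for RSC4, of the RSC chromatin remodeler, 0.70 ± 0.12 against -0.18 (SD, n = 4). RPC37, of RNA polymerase III, was at 1.09 ± 0.24 (partner median 0.28), RQT4, of a complex that splits stalled ribosomes, at 1.09 ± 0.37 (partner median -0.04), and SET3, of a histone deacetylase complex, at 0.83 ± 0.18 (partner median 0.01).

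A few partners were as high as or higher than the member. In TRAPP, TRS31 at 2.55 ± 0.49 exceeded BET3, and in RSC, RTT102 at 0.72 ± 0.10 was level with RSC4. NUP133 was the member of the 15 that lay below its partners. Its 5 measured partners off chromosome XI were between -0.52 (NUP145) and 0.34 (SEH1) and thus all above it on average. NUP145 was below 0 on every array, at -0.59, -0.99, -0.17 and -0.34, and on array 2 it was lower than NUP133. The subunit NUP120 is encoded on chromosome XI and was not included.

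Several members have a paralogue, a related gene from an old duplication, on another chromosome. For 22 of 24 such pairs, which were listed after values of the members had been seen, both genes were measured. The member was higher on average in 21 of the 22 and on every array in 15, and the median difference was 0.70 on the log2 scale. The medians were 0.81 for the members and -0.18 for the paralogues. Here too the difference follows from the choice of a chromosome with high ratios, and the share for unrelated genes was not computed. The pairs include close copies, and TIF2 and CHS6 are also among the partners in the complexes. SRL3 at 1.57 ± 0.33 stood against WHI5 at -0.20 ± 0.25, TGL4, a triacylglycerol lipase, at 1.21 ± 0.23 against TGL5 at -0.25 ± 0.13, and MLP1, a filament protein of the nuclear basket, at 0.64 ± 0.14 against MLP2 at -0.42 ± 0.18 (SD, n = 4). IRS4, a regulator of phosphoinositides, was at 1.42 ± 0.28 and TAX4 at -0.30 ± 0.19, and YSR3 at 1.78 and LCB3 at -0.17 ± 0.22 differed most, by 1.94.

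Some pairs are close copies in sequence. TIF1 and TIF2 were at 0.91 and 0.86, RPS21A and RPS21B at 1.57 and 1.44, and RPL40B, for a ribosomal protein made as a fusion with ubiquitin, was at 0.72 ± 0.53 against 1.10 ± 0.67 (SD, n = 4) for RPL40A and lower than it on every array. Long oligonucleotides for such copies may bind the RNA of both, so the values of these members are uncertain. This also holds for GEX2 at -1.38 and GEX1 at -2.25 ± 0.26, where GEX2 was higher on all 4 arrays and by 0.87 on average, and for VBA5 at 0.37 and VBA3 at 0.16 ± 0.86. BCH2 and its relative CHS6 were both high, at 1.82 and 1.43 ± 0.29 (SD, n = 4).

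**Figure D5:**
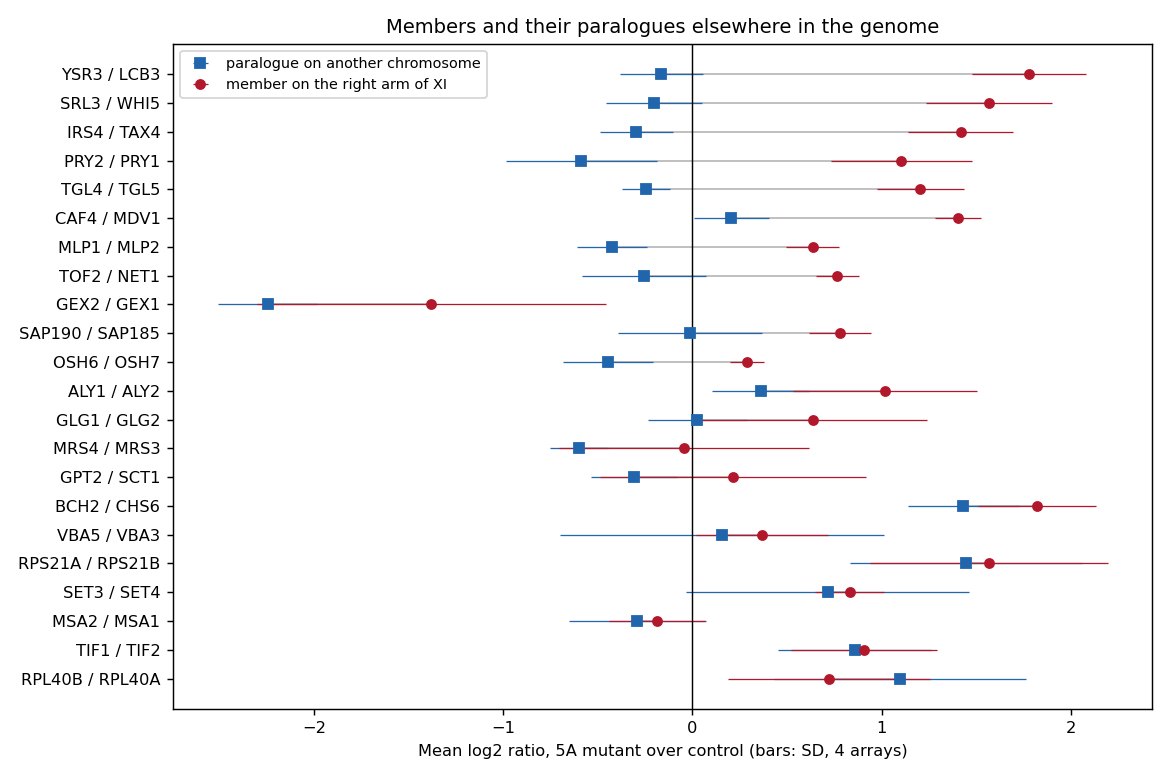
Mean log2 ratio (5A mutant over control) with SD over 4 arrays of 22 members (red circles) and their paralogues on other chromosomes (blue squares), sorted by the difference. The member lies to the right in 21 pairs, by 1.94 in YSR3 and LCB3, and the exception is RPL40B and RPL40A.

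The classes by distance from the arm were also compared in strand and gene length, which the choice of members did not use. Of the 66 members that followed the arm 31 were on the W strand and 35 on the C strand, of those below it 11 and 10, and of those above it 8 and 7. Gene length in RefSeq can include introns. Its median was 1278 bases for members that followed the arm, 1238 for those below and 1068 for those above. The ranges of 402 to 12279, 315 to 3474 and 582 to 3216 overlapped. The SD over arrays, which comes from the same ratios as the classes, had a median of 0.26 in the first class, 0.60 in the members below and 0.28 in the members above. Of the 5 members without a RefSeq entry, YKR012C (1.13 ± 0.16), YKR033C (1.16 ± 0.91) and YKR047W (0.73 ± 0.72) followed the arm, and YKR035C and YKR040C lay below it.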

How the data were processed

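The authors' GenePix scans were normalized by them on the BASE server, and the deposited values are log2 ratios, given for each probe on each array. The normalization method, background correction and genome build are not given in the sources used here, and spot intensities were not analysed here, so dim or saturated spots could not be examined. Neither base nor direction is stated in the table. The reading used here, log2 of 5A mutant (Cy5) over control (Cy3), was taken because with a value on all 4 arrays 325 probes are at or above 1 and 493 at or below -1, which fits the up- and down-regulated genes of the paper in this direction and not in the reverse.

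Between 6022 and 6177 of the 6210 probes had a value on an array. The 4 arrays limit the precision. Ratios were averaged with no further normalization, pseudocount or filter on signal for 6157 probes, those measured on 2 or more arrays. A limma 3.58.1 fit (R 4.3.3, intercept only, eBayes, false discovery rate of 0.05 by Benjamini-Hochberg) covered all of them and was tested on simulated data. Other steps used Python 3.11.15, pandas 2.3.3 and matplotlib 3.10.9. The 2-fold cut-offs are those of the study.

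The members and lists were chosen with earlier results of these data known. Genes named are the 12 lowest and 10 highest relative to the arm, the 6 nearest to it, the extremes of each role, members of complexes, the first 5 and last 10 by ORF number and those at the class limits. Others were named after their values were seen. TFIIE was left out of the complexes because its partner lies on chromosome XI. Alternatives were other centring and spread of arrays, other requirements on values, other averages, limits and blocks, and each array left out. Promoter motifs were planned and not analysed here.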

Additional observations from a re-analysis of the deposited data

Results flagged for a closer look

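A single array stood far from the rest for 2 of the 58 genes or medians examined, and chance alone marks about 1 in 20. IRS4 was at 1.01 on array 3, against 1.52 to 1.59 on the others. SPC34 was at 1.27 on array 2, against 0.82 to 0.88 on the others. No cause was tested for either.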

How the results depend on the processing

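No paired analysis was possible because each array already holds 1 mutant and 1 control sample, and there is no other group to pair. The median of the arm lay between 0.88 and 0.93 with 1 array left out and was 0.80 as a mean over members. Members at least 2-fold higher numbered 42 to 48 with 1 array left out and 22 when every array had to pass, and members at least 2-fold lower 1 to 3 and 0. With 1 array left out, 13 to 20 members had a mean at or below 0, and 5 to 11 were at or below 0 on every array. The number that followed the arm was then 62 to 65, below it 19 to 25, above it 16 to 19, and unsettled 3 to 5. A limit of 0.4 gave 8 unsettled members, and a limit of 0.75 gave 7 above the arm and 3 unsettled. With no requirement on sign none (0) was unsettled. Limma called 69 to 77 members higher and 2 to 5 lower with 1 array left out, and 4 lower with array weights. The shares of all probes called in these fits are not given here, so nothing is read from the counts. The lowest block median was 0.33 to 0.46 and the highest 1.21 to 1.29 with 1 array left out, and 0.60 and 1.14 with blocks of 15. The median of the last 10 members was 0.69 to 0.90 with 1 array left out. That of the last 5 was 1.05, and that of the last 15 was 0.72. The causes were not tested. Other centring or spread of the arrays left each of these counts within 1.5 times. Of the 57 named genes, 3 had means of both signs with 1 array left out, namely YKR035C (-0.42 to 0.18), DID2 (-0.46 to 0.02) and MRS4 (-0.34 to 0.19). PCK1 then ran from -0.77 to -0.0020 and VPS501 from 0.20 to 0.91. Leaving out the first 6 and last 10 members, a choice made after the data were seen, gave a median of 0.92, with 62 members following the arm, 14 below it and 11 above it. The 4 arrays with 1 dye orientation limit what the ratios of single members can show.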
